A study of Mus musculus with 10 samples.

Results

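The genes described are those of the insulin-like growth factor 1 (IGF1) axis, namely the ligand gene Igf1, the receptor gene Igf1r and the 6 binding protein genes Igfbp2 to Igfbp7. They were chosen by symbol, and 8 of the 15078 genes in the deposited table were members. RNA sequencing had been done on 10 libraries of cells sorted from mouse bone as CD45-Ter119-CD31-CD51+CD200+. Graft BM-MSCs (n = 4) were Tomato+ mesenchymal stem cells from the marrow of Postn-CreER;tdTomato femurs (POSTN-CRE in the labels) that had been placed under the skin of wild-type recipients, sorted 5 months after transplantation. BM-MSCs (n = 3) from the marrow and P-SSCs (n = 3), the skeletal stem cells of the periosteum, came from wild-type mice (the methods name C57BL/6J as a stock) at steady state, called hosts in the labels, and were re-analyzed from another series. The groups put the question of whether cells found in regrown marrow, once marked through Postn, are closer to marrow or to periosteal cells.

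The recipients of grafts received tamoxifen at 1 mg per mouse, 2 times a day for 10 days from day 2 after transplantation, and the labels give the treatment of the steady-state mice as none. Postn drives the Cre and is also used by fibroblasts and osteoblasts, so that a Tomato+ cell need not descend from a P-SSC. Mice were 6 to 12 weeks old unless stated otherwise, each library held RNA from 1000 to 3000 cells, and in BM-MSC 2+4 and P-SSC 2+5 the RNA of 2 mice was combined. Graft and steady-state groups thus differed in genotype, tamoxifen, transplantation and series at once, and these cannot be told apart. Age at the sort may differ too, since graft cells were taken 5 months after transplantation. It cannot be told apart from the others either. Sex may differ between libraries as well. Xist, the RNA of the inactive X chromosome, had normalized read counts of 2448 and 2533 in graft BM-MSC 2 and 3 and 0 in every other library. The part of sex in the differences was not tested.

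IGF1 is secreted by stromal and bone cells and acts through the receptor tyrosine kinase IGF1R, which signals by way of IRS proteins, PI3K and AKT. The IGF binding proteins are secreted carriers that hold IGFs outside the cell, lengthen or block their action, and are cut by proteases that set the ligand free. In bone, IGF1 promotes the growth and survival of osteoblast lineage cells, and several binding proteins are stored in the matrix.

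Igf1 lies on chr10:87858265-87937042 and Igf1r on chr7:67952827-68233668, both on the plus strand (GRCm38, GENCODE M21, whole genes). Igfbp2 (chr1:72824503-72852474, plus strand) and Igfbp5 (chr1:72857932-72874884, minus strand) face each other with their 3' ends, with a gap of 5.46 kb. Igfbp3 (chr11:7206086-7213923, minus strand) and Igfbp4 (chr11:99041244-99054392, plus strand) share a chromosome but are not neighbors. Igfbp6 lies on chr15:102144362-102149511 (plus strand), and Igfbp7 lies on chr5:77349240-77408041 (minus strand). All 8 are protein-coding genes. Igfbp7 shares 85 exon bases with Polr2b on the opposite strand. Whether the counting used strand is not given in the sources used here, so these bases may carry reads of either gene.

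The promoters of the 3 genes that separated the groups most are shown. Each is the 250 bases before the RefSeq start (GRCm38.p6), written 5' to 3' on the strand of the gene, with matches to TATAAA or GGGCGG on either strand in capitals. The windows are chr11:99040994-99041243 (plus strand) for Igfbp4, chr5:77408046-77408295 (minus strand) for Igfbp7 and chr15:102143936-102144185 (plus strand) for Igfbp6.
Igfbp4: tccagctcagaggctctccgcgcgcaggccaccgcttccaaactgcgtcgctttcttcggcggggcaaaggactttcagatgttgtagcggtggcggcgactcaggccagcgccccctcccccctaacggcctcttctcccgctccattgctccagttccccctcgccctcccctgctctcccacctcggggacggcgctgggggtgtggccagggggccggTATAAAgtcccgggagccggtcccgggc
Igfbp7: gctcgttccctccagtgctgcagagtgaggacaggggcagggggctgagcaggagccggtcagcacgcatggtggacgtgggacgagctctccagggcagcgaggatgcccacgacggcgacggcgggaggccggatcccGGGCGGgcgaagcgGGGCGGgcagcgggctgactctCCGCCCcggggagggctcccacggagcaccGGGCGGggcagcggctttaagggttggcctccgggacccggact
Igfbp6: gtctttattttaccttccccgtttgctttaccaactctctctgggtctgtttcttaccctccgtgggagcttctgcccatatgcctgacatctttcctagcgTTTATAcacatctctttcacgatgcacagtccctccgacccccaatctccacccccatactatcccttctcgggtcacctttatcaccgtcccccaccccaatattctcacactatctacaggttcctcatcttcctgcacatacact

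TATAAA was found 1 time in the Igfbp4 window, beginning 28 bases before the start, and 1 time on the opposite strand of the Igfbp6 window, beginning 148 bases before it. It occurred in 12.4% of all 32851 mouse promoter windows of this length. GGGCGG was found 4 times in the Igfbp7 window and in 32.7% of all windows. TTGCNNAA, also searched on both strands, was in none of the 3 windows and in 9.56% of all, and no matches shown overlapped each other. The windows of Igfbp4 and Igfbp7 held 69.2% and 74.0% GC, against 49.6% in that of Igfbp6 and a median of 52.4%. The windows of the members not shown held 77.6% (Igf1r), 73.2% (Igfbp3), 67.2% and 56.4% (Igfbp2), 58.8% (Igfbp5) and 52.8% (Igf1). High GC was thus not particular to the genes that were high in grafts. The RefSeq start of Igfbp6 lay 176 bases upstream of the GENCODE start. Such matches describe the letters of the window only.

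Reads per library ranged from 15415421 to 25223295, and the deposited values are normalized read counts, that is, reads divided by a size factor. The share of genes at 0 was 22.6% to 38.3% in graft libraries and 11.5% to 19.0% in the others, so a gene at 0 in a graft library is described as listed at 0. The libraries also differed by GC content of the genes. The median of 51 genes with over 65% GC, relative to 6033 genes with 50% to 60% GC, was 1.52 to 2.80 in the 4 graft libraries and P-SSC 4 and -1.81 to -1.51 in the other 5 (log2, from the deviation of each gene from its mean over all libraries). P-SSC 4 therefore stood apart from its group, and values without it are given beside the results it moved most. All graft libraries were on one side of this split and all BM-MSC libraries on the other, so that split and group cannot be told apart in that comparison. The members themselves held between 37.96% (Igf1) and 62.13% (Igfbp2) GC.

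Markers of marrow stroma and periosteum went with the labels. The summed value of 8 marrow stroma markers was 717747 to 856743 in graft BM-MSCs and 872240 to 1188318 in BM-MSCs, but 7741 to 16233 in P-SSCs. In turn, 7 markers of periosteum and fibroblasts summed to 341271 to 524302 in P-SSCs and to 5300 to 9220 in BM-MSCs. Their sum was 332 to 2150 in graft BM-MSCs, where Thbs4 and Cd34 were listed at 0 in every library. Of 5 endothelial markers, all but Vwf were at 0 in every graft library, Cdh5 was at 0 in every BM-MSC library and Emcn and Tie1 in every P-SSC library, and the sum was at most 114 in graft BM-MSCs, 155 to 290 in BM-MSCs and 3291 to 6871 in P-SSCs. Blood cell markers (7 genes) summed to 66591 to 200820 in BM-MSCs, 5776 to 77689 in graft BM-MSCs and 259 to 1179 in P-SSCs, although the sort had removed CD45+ cells. Chondrocyte markers (7 genes) summed to 36216 to 80166 in BM-MSCs and at most 3884 elsewhere. In bulk RNA, fewer cells of a type and less RNA per cell cannot be told apart.

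Igf1, the ligand, did not pass the test in any comparison and had close group means. Its normalized read count was 1867, 2488, 907 and 6881 in graft BM-MSC 1 to 4, then 2924, 3582 and 3477 in BM-MSC 1, 2+4 and 3, and 3403, 3107 and 2675 in P-SSC 1, 2+5 and 4. The graft libraries spread above and below all others, and all groups overlapped. Differences were tested with limma, which fits a linear model to every gene and shares the variance between genes, and p-values were adjusted over all genes by Benjamini-Hochberg. The means were 3036 ± 2644 (SD, n = 4), 3328 ± 353 (SD, n = 3) and 3062 ± 366 (SD, n = 3). The log2 difference was -0.39 between graft BM-MSCs and P-SSCs (95% interval -1.57 to 0.79, limma, adjusted p = 0.638) and -0.51 between graft BM-MSCs and BM-MSCs (-1.69 to 0.67, adjusted p = 0.570). Between P-SSCs and BM-MSCs it was -0.12 (-1.38 to 1.14, adjusted p = 0.999). A 2-fold fall thus lay within the intervals of all 3 comparisons, and a 2-fold rise lay within that of P-SSCs against BM-MSCs.

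Igf1r, the receptor, was low throughout. In normalized read counts it was at 101, 11.8, 2.01 and 62.1 in graft BM-MSC 1 to 4, 60.6, 69.6 and 165 in BM-MSC 1, 2+4 and 3, and 157, 82.8 and 188 in P-SSC 1, 2+5 and 4. Graft BM-MSC 2 and 3, with 14 and 2 reads, were below every other library, but graft BM-MSC 1 and 4 fell among the steady-state values. The former 2 libraries had the highest shares of genes at 0 (38.3% and 30.4%) and were those with Xist. The part of either in the Igf1r values was not tested. The log2 difference of graft BM-MSCs was -2.60 (SE 1.30) to P-SSCs, with an adjusted p of 0.195, and -2.005 (SE 1.30) to BM-MSCs, with an adjusted p of 0.361 (limma).

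**Figure D1:**
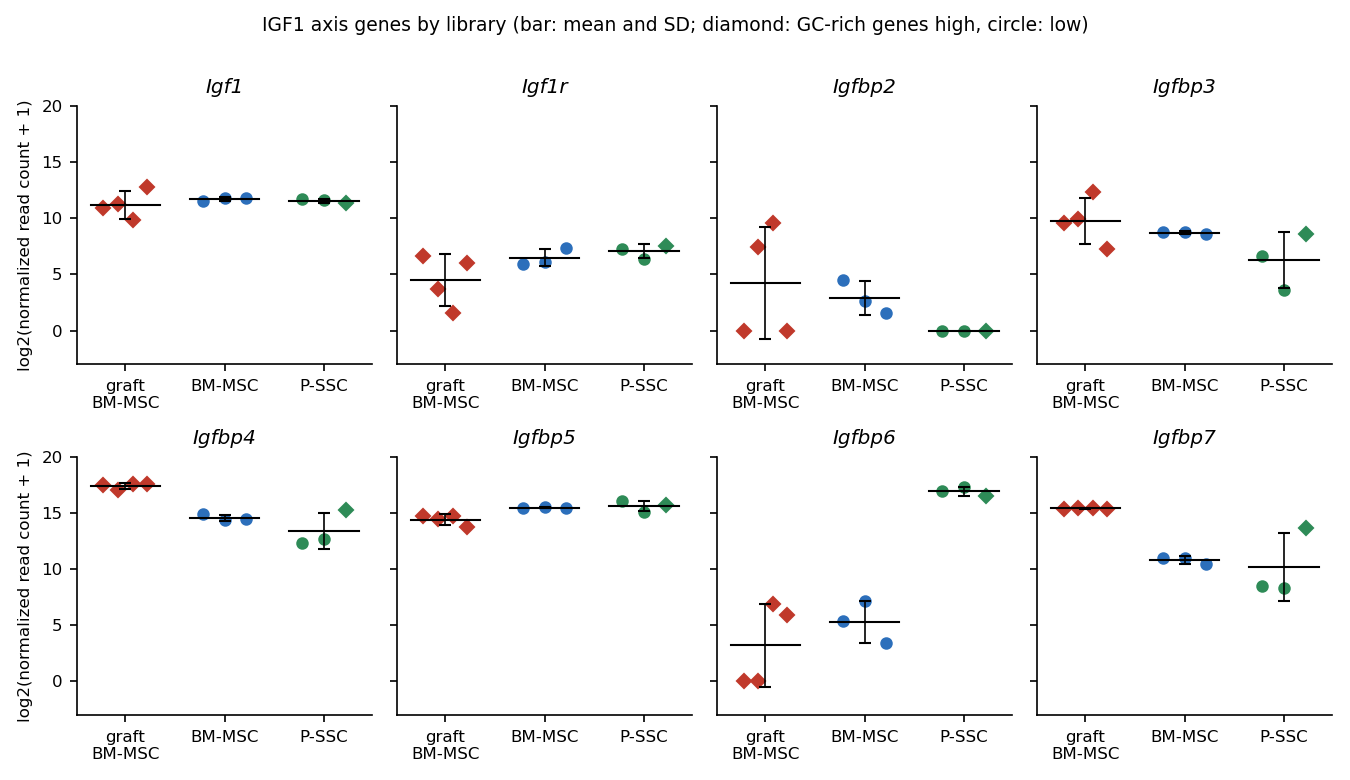
Normalized read counts of the 8 genes in each library, on the scale log2(value + 1), by group. Bars give the mean and SD of the log2 values, diamonds the libraries in which GC-rich genes were high and circles those in which they were low. Igfbp6 was at least 95113 in the 3 P-SSC libraries and at most 143 in the other 7, whereas Igfbp4 and Igfbp7 were highest in the 4 graft libraries.

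Among binding proteins, the comparison of graft BM-MSCs with P-SSCs had the most changes. Of the 8 members 4 passed the test, 2 higher (Igfbp4 and Igfbp7) and 2 lower (Igfbp6 and Igfbp5), against 18.1% of all 13644 genes tested (6.08% higher and 12% lower). Against BM-MSCs, 3 passed, Igfbp4 and Igfbp7 higher and Igfbp5 lower, where 7.67% of all genes passed (2.61% higher and 5.06% lower). Between P-SSCs and BM-MSCs, 1 passed, Igfbp6, which was higher in P-SSCs, and 9.15% of all genes passed (4.57% higher and 4.58% lower). The comparisons share groups with each other. The median difference of all genes was -0.47 and -0.53 (log2) in the comparisons of graft BM-MSCs with P-SSCs and with BM-MSCs and 0.00 for P-SSCs against BM-MSCs, beside medians of 1.54, 0.26 and -0.38 over the members, which were the same with Igfbp2 set to its bound where P-SSCs were at 0. Without P-SSC 4, the counts that use P-SSCs were 5 and 3 members in place of 4 and 1. The shares of all genes above are from the fit of all libraries, and those without P-SSC 4 are not given here.

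**Figure D2:**
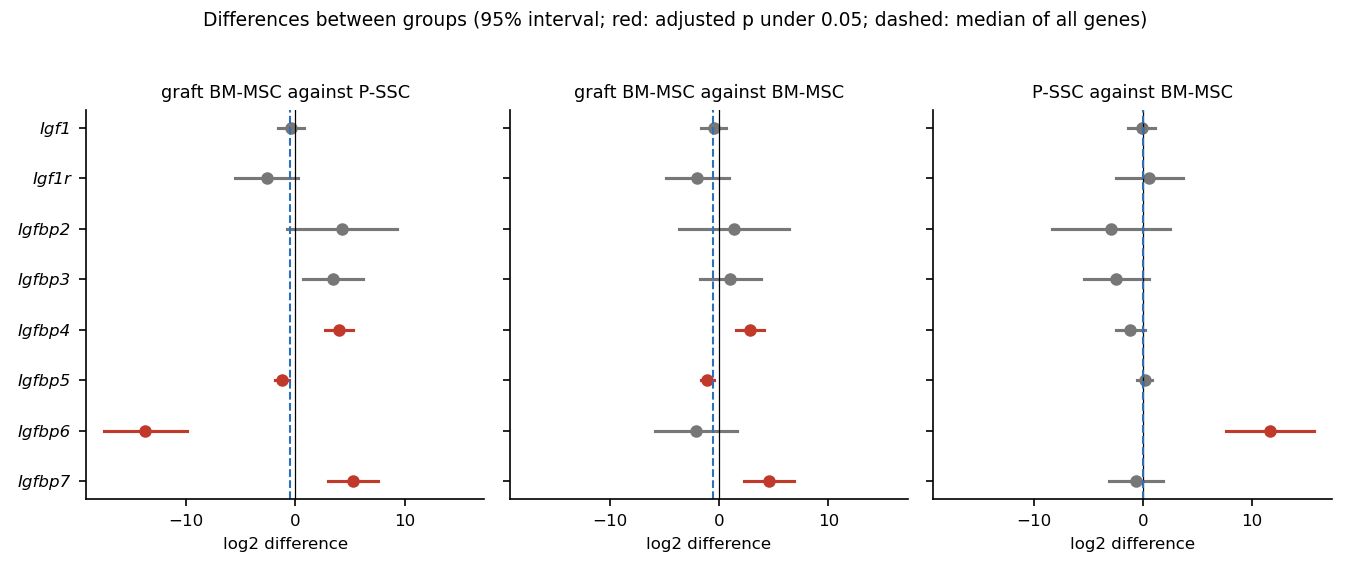
Log2 differences of the 8 genes between groups, with 95% intervals from limma. Red marks an adjusted p under 0.05 and the dashed line is the median of all genes tested. Igfbp6 had the most negative difference to P-SSCs, -13.73, and Igfbp7 the most positive, 5.25.

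Igfbp4 encodes a binding protein that mostly restrains IGF action until the protease PAPP-A cuts it. Its normalized read count was 181652, 130237, 189251 and 192645 in graft BM-MSC 1 to 4, 29924, 21407 and 21793 in BM-MSC 1, 2+4 and 3, and 5111, 6456 and 39008 in P-SSC 1, 2+5 and 4. Every graft library was above every other library, and P-SSC 4 was above the BM-MSC libraries while the other P-SSCs were below them. Igfbp4 was 10.3-fold higher in graft BM-MSCs than in P-SSCs (log2 difference 3.98, SE 0.57, limma, adjusted p = 0.000765), or 4.45 relative to the median of all genes. Folds are ratios of mean values, whereas differences are between means of log2 values, so that a single high library moves a fold more. Without P-SSC 4 the P-SSC mean of Igfbp4 fell from 16859 to 5784, the fold was 29.99 and the difference 4.90 (adjusted p = 5.71e-06). Igfbp4 was 7.12-fold higher than in BM-MSCs (2.83, SE 0.57, adjusted p = 0.0153). Between P-SSCs and BM-MSCs the difference was -1.15 (adjusted p = 0.386), and it was -2.07 without P-SSC 4 (adjusted p = 0.000588).

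Where GC-rich genes were high, Igfbp4 was higher too. P-SSC 4 was 6.74-fold above the mean of the other P-SSCs, and the mean of graft BM-MSCs was 4.45-fold above P-SSC 4, with 4 of 4 graft libraries above it. Among libraries with GC-rich genes low, BM-MSCs were 4.21-fold above P-SSC 1 and 2+5. With the GC split as a covariate the difference to P-SSCs was 2.14, but that to BM-MSCs was 0.07. A correction for GC content of the genes moved the differences the other way, to 4.96 (adjusted p = 7.1e-05) against P-SSCs and 3.74 (adjusted p = 0.00318) against BM-MSCs. The covariate rests on P-SSC 4 alone for every difference of graft BM-MSCs, here and below, as the only P-SSC library on their side of the split. The part of the split in the difference was not tested further. The difference to BM-MSCs also missed the threshold without BM-MSC 2+4 (adjusted p = 0.0696) or BM-MSC 3 (adjusted p = 0.0676), and with edgeR on the recovered reads (adjusted p = 0.0594).

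Igfbp7, which encodes a matrix protein of the family that binds IGFs only weakly, was also highest in graft BM-MSCs. The normalized read counts were 42199, 45055, 43218 and 41981 in graft BM-MSC 1 to 4, 1976, 2061 and 1374 in BM-MSC 1, 2+4 and 3, and 358, 318 and 12761 in P-SSC 1, 2+5 and 4. The graft libraries lay close together, with a coefficient of variation of 3.25%, and did not overlap with any other library. P-SSC 1 and 2+5 were the lowest, whereas P-SSC 4 was above all BM-MSC libraries. Igfbp7 was 23.9-fold higher in graft BM-MSCs than in BM-MSCs (log2 difference 4.60, SE 1.03, limma, adjusted p = 0.0254) and 9.62-fold higher than in P-SSCs (5.25, SE 1.03, adjusted p = 0.00525). The P-SSC mean of 4479 was carried by P-SSC 4, and without that library the mean was 338, the fold 127 and the difference 6.99 (adjusted p = 7.24e-07). Without P-SSC 1 or 2+5 the difference was 4.42 and 4.33.

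P-SSC 4 held 37.7-fold more Igfbp7 than the mean of the other P-SSCs. Graft BM-MSCs were 3.38-fold above P-SSC 4, again in 4 of 4 libraries, and BM-MSCs were 5.33-fold above P-SSC 1 and 2+5. With the GC split as a covariate, the difference to P-SSCs was 1.76, while that to BM-MSCs turned to -0.63. The former is the graft mean against P-SSC 4 alone and so restates that comparison, and the latter depends on P-SSC 4 as well. With the correction for GC content they were 6.004 (adjusted p = 0.000536) and 5.18 (adjusted p = 0.00558). The call against P-SSCs was lost with edgeR (adjusted p = 0.0929), and that against BM-MSCs was lost with edgeR (adjusted p = 0.0729) and without graft BM-MSC 1 or 3 or any 1 of the BM-MSC libraries (adjusted p of 0.0518 to 0.0998). Between P-SSCs and BM-MSCs, the difference was -0.65 (adjusted p = 0.948) with all libraries and -2.39 (adjusted p = 0.000174) without P-SSC 4. The means ran the other way with all libraries, at 4479 in P-SSCs and 1804 in BM-MSCs, again through P-SSC 4.

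**Figure D3:**
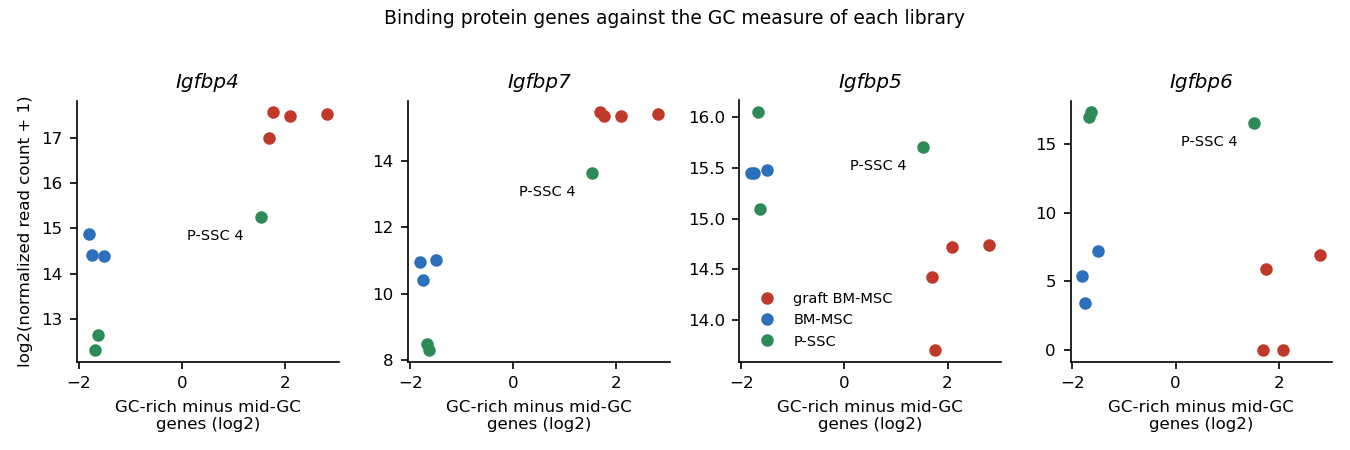
Igfbp4, Igfbp7, Igfbp5 and Igfbp6 as log2(normalized read count + 1) against the GC measure of the library, the log2 median of genes with over 65% GC minus that of genes with 50% to 60% GC. Each point is a library. P-SSC 4, at 1.52 on the horizontal axis, was above the other P-SSCs for Igfbp4 (39008) and Igfbp7 (12761) but not for Igfbp6 (95113).

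Igfbp6 encodes a binding protein that favors IGF2 over IGF1, and it marked the periosteal libraries. Normalized read counts of Igfbp6 were 125534, 160683 and 95113 in P-SSC 1, 2+5 and 4, 39.7, 143 and 9.86 in BM-MSC 1, 2+4 and 3, and 0, 0, 117 and 57.8 in graft BM-MSC 1 to 4. P-SSCs were far above all marrow libraries, and the 2 marrow groups overlapped. Igfbp6 was 1976-fold higher in P-SSCs than in BM-MSCs (log2 difference 11.60, SE 1.82, limma, adjusted p = 0.00192) and 2911-fold higher than in graft BM-MSCs, where it fell by 13.73 on the log2 scale (SE 1.71, adjusted p = 0.000328). P-SSC 4 alone was 2178-fold above the graft mean. When each library was left out in turn, these Igfbp6 differences ranged from 10.66 (without BM-MSC 3) to 12.53 (without BM-MSC 2+4) and from -14.96 (without graft BM-MSC 3) to -12.67 (without graft BM-MSC 1 or 2). Graft BM-MSCs and BM-MSCs differed by -2.13 (interval -5.91 to 1.65, adjusted p = 0.460). The sum of the 7 markers of periosteum and fibroblasts was also highest in P-SSCs. Unlike Igfbp6, that sum did not overlap between graft BM-MSCs (332 to 2150) and BM-MSCs (5300 to 9220). Whether the same cells carried Igfbp6 and these markers was not tested.

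Igfbp5, which encodes a binding protein that attaches to bone matrix, was lower in graft BM-MSCs. The counts after normalization were 26945, 21956, 27363 and 13336 in graft BM-MSC 1 to 4, 44687, 45751 and 44845 in BM-MSC 1, 2+4 and 3, and 67819, 35037 and 53368 in P-SSC 1, 2+5 and 4. All graft libraries were below all others, BM-MSCs were nearly alike, and P-SSCs lay on both sides of them. The mean was 2.32-fold higher in P-SSCs (log2 difference -1.22, SE 0.28, limma, adjusted p = 0.0123) and 2.01-fold higher in BM-MSCs (-1.06, SE 0.28, adjusted p = 0.0453) than in graft BM-MSCs. Relative to the median of all genes these differences were -0.75 and -0.54. The call against BM-MSCs was lost when any 1 of the 7 libraries was left out (adjusted p of 0.0517 to 0.146) and with the correction for GC content (-0.20, adjusted p = 0.799). It was also lost with edgeR (adjusted p = 0.0801) and quantile normalization (adjusted p = 0.200), and passed in 4 of 20 alternatives. The call against P-SSCs was lost without P-SSC 1 (adjusted p = 0.0740), with quantile normalization (adjusted p = 0.118) and with that correction (-0.38, adjusted p = 0.554). It was lost as well in the fit of these 2 groups alone (adjusted p = 0.0643) and with the GC split as a covariate (-1.31), and passed in 13 of 20 alternatives. The sum of 7 osteoblast markers was lowest in grafts as well, at 77335 to 101935, against 599572 to 1292418 in BM-MSCs and 193263 to 431087 in P-SSCs, and its part in the difference was not tested. P-SSCs and BM-MSCs differed by 0.16 (-0.51 to 0.82, adjusted p = 0.964).

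Igfbp3, whose protein carries most IGF1 in blood together with the acid-labile subunit, varied within groups. Its normalized read count was 767, 972, 5007 and 148 in graft BM-MSC 1 to 4, 447, 437 and 379 in BM-MSC 1, 2+4 and 3, and 97.6, 11.5 and 390 in P-SSC 1, 2+5 and 4. Graft BM-MSC 3 was the highest and P-SSC 2+5 the lowest, and graft BM-MSC 4 fell between P-SSC 1 and P-SSC 4. The difference of graft BM-MSCs to P-SSCs was 3.46 (SE 1.25, adjusted p = 0.0824), and it passed the threshold without graft BM-MSC 4 (4.31, adjusted p = 0.0353) or without P-SSC 4 (4.62, adjusted p = 0.0324). It also passed with DESeq2 (3.39, adjusted p = 0.0108) and with the correction for GC content (4.44, adjusted p = 0.0274). In all, it passed in 4 of 20 alternatives. The difference to BM-MSCs was 1.04 (adjusted p = 0.627) and that between P-SSCs and BM-MSCs -2.43 (adjusted p = 0.420).

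Igfbp2, which encodes a binding protein of both IGFs, was absent from the P-SSC reads and uneven in grafts. Graft BM-MSC 2 and 3 held 175 and 771, whereas the gene was listed at 0 in the other 2 graft libraries. BM-MSC 1, 2+4 and 3 held 21.9, 5.27 and 1.97, from 21, 5 and 2 reads. All 3 P-SSC libraries were at 0, so the graft mean of 236 was at least 72.1-fold above the mean value of a floor of 3 reads per library. Graft BM-MSC 3 carried this mean, and without it the mean was 58.2 and the bound 17.7-fold. No comparison passed with limma (adjusted p of 0.221 to 0.735). With DESeq2 the difference of graft BM-MSCs to P-SSCs (24.3, adjusted p = 1.7e-16) and that of P-SSCs to BM-MSCs (-19.7, adjusted p = 1.29e-09) passed. Both rest on a group without a read. Blood cell markers were also highest in graft BM-MSC 3 among graft libraries, with a sum of 77689 against 5776 to 29956 in the other 3, and their part in this value was not tested. Graft BM-MSC 2 and 3, which held Igfbp2 reads, were also the graft libraries with Xist (2448 and 2533). Xist was at 0 in graft BM-MSC 1 and 4 and in the BM-MSC libraries. The part of sex in the Igfbp2 values was not tested either.

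Per kilobase of exon, the levels of different genes could be set in order within each group. In graft BM-MSCs, Igfbp4 (39277 ± 6606, SD, n = 4, normalized read count per kb) and Igfbp7 (35660 ± 1160) led with overlapping ranges, and Igfbp5 followed with 3730 ± 1086 and no overlap with either. Igfbp3, Igf1, Igfbp2, Igfbp6 and Igf1r came next, each overlapping with its neighbor in this order. In BM-MSCs the order was Igfbp5 (7508 ± 96, SD, n = 3), Igfbp4 (5520 ± 1089), Igfbp7 (1492 ± 310) and Igf1 (336 ± 36), with no overlap between neighbors down to Igfbp3, which overlapped with Igfbp6. In P-SSCs Igfbp6 (114307 ± 29508) was apart from Igfbp5 (8670 ± 2735), which overlapped with Igfbp4 and Igfbp7, and Igfbp2 was last at 0.

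Each group had its own leading binding protein transcript. Of the summed values per kb of Igfbp2 to Igfbp7, Igfbp4 took 49.2% ± 5.32 and Igfbp7 45.2% ± 4.98 in graft BM-MSCs (SD, n = 4), where Igfbp5 took 4.70% ± 1.31. In BM-MSCs, Igfbp5 took 51.3% ± 4.32, Igfbp4 37.3% ± 4.46 and Igfbp7 10.1% ± 1.75 (SD, n = 3). In P-SSCs, Igfbp6 took 86.6% ± 10.4 (SD, n = 3), with 75.1% in P-SSC 4 as the lowest share. The leading gene was Igfbp7 in graft BM-MSC 2 and Igfbp4 in the other 3 graft libraries, and it was the same in every library of the steady-state groups.

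**Figure D4:**
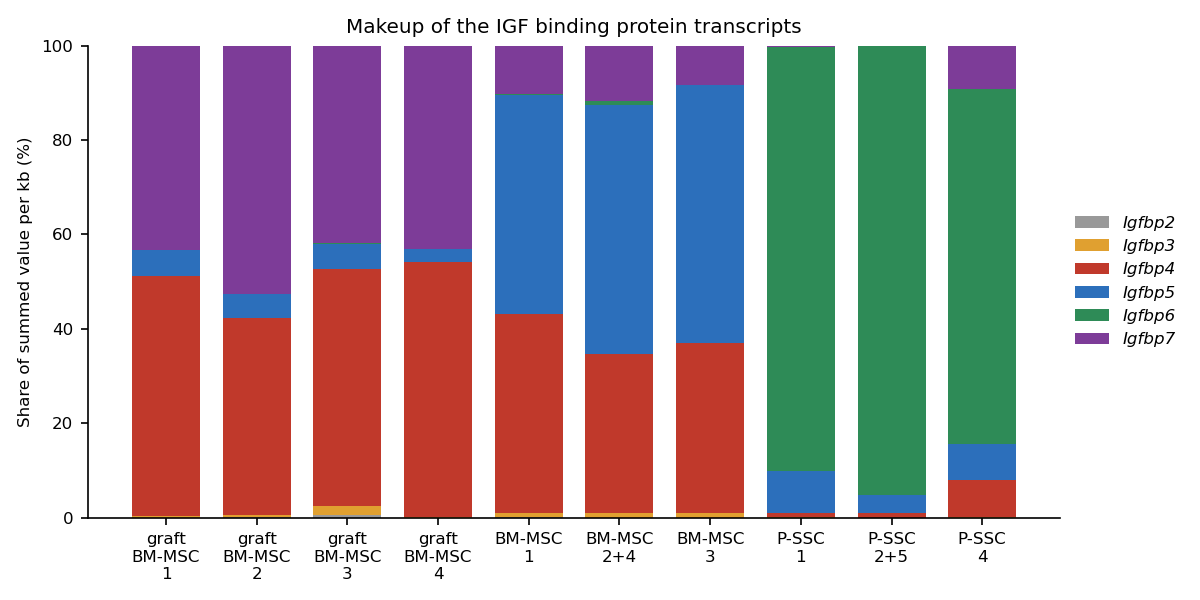
Share of each binding protein gene in the summed normalized read count per kb of exon of Igfbp2 to Igfbp7, as stacked bars, 1 per library. Igfbp4 and Igfbp7 filled 92.2% to 97.1% of the bar in graft libraries, Igfbp5 was the largest share in BM-MSCs, and Igfbp6 took at least 75.1% in P-SSCs.

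The sum of these 6 genes per kb was 79384 ± 6102 (SD) in the 4 graft libraries, 14717 ± 1210 in the 3 BM-MSC libraries and 130554 ± 19529 in the 3 P-SSC libraries, and the groups did not overlap. Igf1 per kb was 0.735 ± 0.602 for every 100 of the leading binding protein gene in the 4 graft libraries (mean ± SD), against 4.47 ± 0.437 in BM-MSCs and 0.279 ± 0.0540 in P-SSCs. The BM-MSC libraries, at 3.97 to 4.75, were above the graft libraries, at 0.214 to 1.59. These ratios compare transcript levels of different genes, and for graft BM-MSCs and BM-MSCs they come from opposite sides of the GC split.

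Other genes of the pathway were read from lists of ligands, proteases, growth hormone input and signaling, whose counts stand beside 18.1% of all genes called between graft BM-MSCs and P-SSCs, 7.67% between graft BM-MSCs and BM-MSCs and 9.15% between P-SSCs and BM-MSCs. Igf2, the second ligand, was at 4.03 to 44.3 in all libraries and did not pass in any comparison. Of the 5 tested genes among other ligands, receptors and carriers, 1 was higher in graft BM-MSCs than in P-SSCs, none differed between graft BM-MSCs and BM-MSCs, and 1 was lower in P-SSCs than in BM-MSCs, in each case by limma at an adjusted p of 0.05. The gene was Igfals, which encodes the acid-labile subunit. It was at 250, 242, 42.3 and 91.5 in graft BM-MSC 1 to 4, at 104, 370 and 165 in BM-MSC 1, 2+4 and 3, and at 18.7, 0 and 0 in P-SSC 1, 2+5 and 4. The difference of graft BM-MSCs to P-SSCs was 5.53 (SE 1.35, adjusted p = 0.0174), and it missed the threshold without P-SSC 2+5 (adjusted p = 0.0695), with edgeR (adjusted p = 0.120), in the fit of these 2 groups alone (adjusted p = 0.0611) and with the GC split as a covariate (6.97, adjusted p = 0.0672). That of P-SSCs to BM-MSCs, -6.11 (SE 1.45, adjusted p = 0.0230), missed the threshold without any 1 of 5 of the 6 libraries (all but P-SSC 1, adjusted p of 0.0555 to 0.106), with edgeR (adjusted p = 0.168) and with the GC split as a covariate (-5.39, adjusted p = 0.0766).

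Among 8 tested proteases of binding proteins and their inhibitors, graft BM-MSCs had 2 higher and 0 lower than P-SSCs, and 0 higher and 1 lower than BM-MSCs, while P-SSCs had 1 higher and 2 lower than BM-MSCs, beside 18.1%, 7.67% and 9.15% of all genes called in these comparisons. Pappa, which encodes the protease that cuts IGFBP4, was at 587, 1455, 3020 and 1299 in graft BM-MSC 1 to 4, at 1675, 2479 and 2176 in BM-MSC 1, 2+4 and 3, and at 19.7, 93.0 and 20.4 in P-SSC 1, 2+5 and 4. Marrow libraries of both kinds were above all P-SSCs, with a difference of 5.29 (SE 0.66, adjusted p = 0.000335) for graft BM-MSCs and of -5.91 (SE 0.70, adjusted p = 0.000394) for P-SSCs against BM-MSCs. P-SSC 4 was as low in Pappa as P-SSC 1, and without P-SSC 2+5 the differences were 6.01 and -6.63.

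Adam12, a metalloprotease gene, was higher in graft BM-MSCs (mean 536) than in P-SSCs (mean 20.6, log2 difference 5.64, adjusted p = 0.0228), but not with the GC split as a covariate (2.31, adjusted p = 0.544), with edgeR (4.74, adjusted p = 0.104), in the fit of the 2 groups alone (adjusted p = 0.0937) or without graft BM-MSC 4, P-SSC 1 or P-SSC 2+5 (adjusted p of 0.0558 to 0.0941). Without P-SSC 4 the difference was 7.30 (adjusted p = 0.00376). Adam28, of the same family, was listed at 0 in all graft and P-SSC libraries and at 26.1, 65.4 and 48.3 in BM-MSC 1, 2+4 and 3 (adjusted p = 0.00230 against graft BM-MSCs and 0.000866 against P-SSCs). The Adam28 calls were lost with edgeR (adjusted p = 0.0951 and 0.1503) and with DESeq2 (adjusted p = 0.109 and 0.229). That against graft BM-MSCs was also lost with quantile normalization (adjusted p = 0.0753) and with the GC split as a covariate (adjusted p = 0.102), which left the difference itself as it was. Htra3, a serine protease gene, was higher in P-SSCs than in BM-MSCs (3.26, SE 0.81, adjusted p = 0.0286). It stood at 2916, 4531 and 46869 in P-SSC 1, 2+5 and 4, and without P-SSC 4 the difference was 2.03 (adjusted p = 0.00209). The call of Htra3 was lost without any 1 of the BM-MSC libraries (adjusted p of 0.0841 to 0.0993) and in the fit of these 2 groups alone (adjusted p = 0.0981).

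Of 6 genes of growth hormone input, 2 were higher in graft BM-MSCs than in P-SSCs, 1 was lower in graft BM-MSCs than in BM-MSCs, and 2 were lower in P-SSCs than in BM-MSCs, where 18.1%, 7.67% and 9.15% of all genes were called. In a list this short 1 call more or less moves the count by over 1.5 times, and the 3 counts moved that far in 12 of 21, 11 of 21 and 10 of 20 alternatives. Ghr, the growth hormone receptor gene, was at 6622, 5128, 4546 and 4699 in graft BM-MSC 1 to 4, at 5193, 3643 and 3401 in BM-MSC 1, 2+4 and 3, and at 526, 153 and 841 in P-SSC 1, 2+5 and 4. Marrow cells of grafts and of steady-state bone overlapped in Ghr, and both were above P-SSCs (differences 3.67 and -3.29, adjusted p = 0.000494 and 0.00193, or 2.96 and -2.59 without P-SSC 2+5). Socs2, which encodes a feedback inhibitor of growth hormone signaling, was higher in graft BM-MSCs than in P-SSCs (1.44, SE 0.42, adjusted p = 0.0366), and missed the threshold without any 1 of 5 of the 7 libraries (adjusted p of 0.0620 to 0.144), centred on the median (adjusted p = 0.103), in the fit of these 2 groups alone (adjusted p = 0.104) and with the GC split as a covariate (1.70, adjusted p = 0.160). Stat5a, a transcription factor gene of that pathway, was lower in graft BM-MSCs (-1.91, adjusted p = 0.0391) and in P-SSCs (-2.06, adjusted p = 0.0301) than in BM-MSCs. The former Stat5a call was lost without any 1 of 4 of the 7 libraries (adjusted p of 0.0674 to 0.159), in the fit of the 2 groups alone (adjusted p = 0.0698), with edgeR (adjusted p = 0.0651), with the correction for GC content (-1.16, adjusted p = 0.167) and with the GC split as a covariate (-1.30, adjusted p = 0.817). The latter was lost without any 1 of the 6 libraries (adjusted p of 0.0556 to 0.128) and with that covariate (-1.86, adjusted p = 0.103).

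Below the receptor, 25 genes were tested. Graft BM-MSCs had 6 higher and 3 lower than P-SSCs, and 4 higher and 0 lower than BM-MSCs, whereas P-SSCs had 1 higher and 3 lower than BM-MSCs, against 18.1%, 7.67% and 9.15% of all genes called. The adaptor genes Grb14 and Grb10, whose proteins bind and dampen insulin and IGF1 receptors, went in opposite directions. Grb14 was 6.88 higher (log2, SE 0.82, adjusted p = 0.000263) and Grb10 differed by -2.64 (SE 0.42, adjusted p = 0.00141) in graft BM-MSCs than in P-SSCs. Grb14 was also lower in P-SSCs than in BM-MSCs (-5.47, SE 0.87, adjusted p = 0.00208). Without P-SSC 4 the Grb14 differences were 7.997 and -6.58, and without P-SSC 2+5 they were 5.98 and -4.56. Its values were 1311, 1141, 1854 and 1673 in graft BM-MSC 1 to 4, 540, 581 and 530 in BM-MSC 1, 2+4 and 3, and 8.31, 2.55 and 57.2 in P-SSC 1, 2+5 and 4.

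Akt1, Irs2 and Foxo1 were among the genes of this list that were higher in graft BM-MSCs than in BM-MSCs, and they encode a kinase, a docking protein and a transcription factor of the PI3K branch. Akt1 was at 2562 to 3904 in graft BM-MSCs, at 320 to 369 in BM-MSCs and at 349, 531 and 1061 in P-SSC 1, 2+5 and 4 (3.26, SE 0.38, adjusted p = 0.00182 for graft BM-MSCs against BM-MSCs). Irs2 differed by 3.12 (adjusted p = 0.00614) and Foxo1 by 2.96 (adjusted p = 0.0198), where the call of Foxo1 was lost without any 1 of the BM-MSC libraries (adjusted p of 0.0630 to 0.0720) and with edgeR (adjusted p = 0.0544). With the GC split as a covariate none of these 3 passed, and the differences were 1.96, 3.65 and 0.67.

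Against P-SSCs, the PI3K catalytic subunit gene Pik3ca (2.61, adjusted p = 0.0162) was higher in graft BM-MSCs. Between P-SSCs and BM-MSCs, Irs2 was higher in P-SSCs (2.29, adjusted p = 0.0230), and the phosphatase gene Ptpn1 (-2.11, adjusted p = 0.00907) and the PI3K regulatory subunit gene Pik3r1 (-1.51, adjusted p = 0.0192) were lower. The Irs2 call was lost centred on the median (adjusted p = 0.0545), with edgeR (adjusted p = 0.0789), with the correction for GC content (adjusted p = 0.0645) and without BM-MSC 1, BM-MSC 3, P-SSC 1 or P-SSC 2+5 (adjusted p of 0.0680 to 0.0947). That of Pik3r1 was lost with the correction (adjusted p = 0.133) and without any 1 BM-MSC library or P-SSC 2+5 (adjusted p of 0.0563 to 0.0810), and that of Ptpn1 without BM-MSC 3 (adjusted p = 0.0527). Between graft BM-MSCs and P-SSCs, the median differences of the 4 lists were 0.57, 0.64, 1.07 and 0.27 in the order given, beside -0.47 over all genes. They were 0.02, 0.20, -0.50 and -0.19 between graft BM-MSCs and BM-MSCs, beside -0.53 over all genes, and -1.256, -0.74, -2.44 and 0.29 between P-SSCs and BM-MSCs. With the GC split as a covariate, the calls of Grb10 (-2.23, adjusted p = 0.0580) and Pik3ca (2.32, adjusted p = 0.183) against P-SSCs were lost, while the differences stayed near those without it. That of Pik3ca was also lost without P-SSC 1 (adjusted p = 0.0643).

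**Figure D5:**
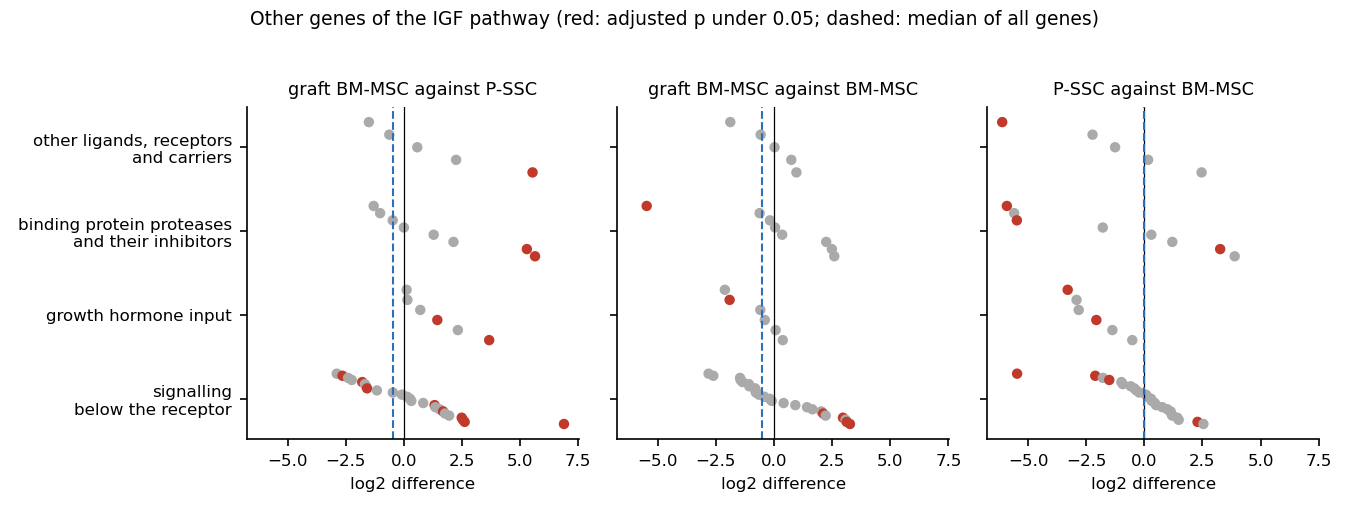
Log2 differences of the tested genes of 4 pathway lists in the 3 comparisons, 1 point per gene. Red marks an adjusted p under 0.05 (limma) and the dashed line is the median of all genes tested. Of 25 signaling genes, 9 passed between graft BM-MSCs and P-SSCs (18.1% of all genes), 4 between graft BM-MSCs and BM-MSCs (7.67%) and 4 between P-SSCs and BM-MSCs (9.15%).

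The genes with the most similar pattern to each member were found by the mean absolute difference between centered log2 profiles over the 10 libraries, among genes with a mean of at least 100. They were Clmp (0.30), Ifngr2 (0.34) and Nudt4 (0.37) for Igfbp4, and Ssbp4 (0.41), Smad6 (0.50) and Tmem243 (0.51) for Igfbp7. For Igfbp6, they were Col14a1 (1.16), Ly6c1 (1.18) and Pi16 (1.31). Col14a1 was at 19793, 17450 and 17105 in P-SSC 1, 2+5 and 4 and at most 5.18 elsewhere, so that it shared the gap between periosteal and marrow libraries. Pi16 was also on the list of markers of periosteum and fibroblasts.

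For Igfbp5 the closest genes were Ipo9 (0.16), Frmd6 (0.19) and Smarcc2 (0.21), for Igf1 Syncrip (0.21), Zfp560 (0.27) and Psmd9 (0.28), for Igf1r Rbfox2 (0.38), Nrde2 (0.44) and Sdccag8 (0.45), and for Igfbp3 Eml4 (0.59), Rad52 (0.69) and Mxd1 (0.71). Igfbp2 was closest to Adra2a (0.99), Xist (1.55) and Cldn10 (1.71). Adra2a was at 1271 and 2138 in graft BM-MSC 2 and 3 and at most 30.6 elsewhere. Xist, the RNA of the inactive X chromosome, was at 2448 and 2533 in the same graft libraries and at 0 in the other 8. Among the members themselves, Igf1 and Igfbp5 were the closest pair (0.66), followed by Igfbp4 and Igfbp7 (0.99). All these distances come from the same 10 libraries, which share the GC split.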

How the data were processed

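RNA of sorted cells was sequenced in 10 libraries. According to the submitters' processing notes, the authors trimmed reads with cutadapt 1.15 and mapped them with STAR 2.5, and counts came from featureCounts (Subread 1.4.6) and DESeq2 1.26.0. The notes name GRCm39 and the methods GRCm38. The annotation release and filters are not given in the sources used here. The deposited signal values are gene counts that the authors divided by a size factor per library. All columns were assigned to libraries by name.

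Values were whole multiples of the value of 1 read (100% within 0.1 of a whole number), which gave reads per library. Differences were tested on log2(value + 1), which understates the change of low genes, with limma 3.58.1 (R 4.3.3, trended empirical Bayes, two-sided) in 1 fit of all 10 libraries, for 13644 genes with a mean of at least 10. P-values were adjusted over these genes by Benjamini-Hochberg (threshold 0.05). They measure the spread between libraries of different mice. Exon lengths, GC content and coordinates came from GENCODE M21 (GRCm38), matched by Ensembl ID for 15052 genes, and promoters from RefSeq. Where a group was at 0, folds were computed against 3 reads per library, which covers counting error only. No 2 libraries of a group were alike within counting noise.

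In simulated data with 200 genes changed 4-fold, 80.5% were recovered for graft BM-MSCs against P-SSCs and 69% for P-SSCs against BM-MSCs, each with 6 false calls. What share is recovered in the measured libraries, and how many calls there are false, was not tested. All members were named. Of each list, up to 4 genes that passed were named by the size of the difference (1 gene of the signaling list is not reported here), and the 3 most similar genes of each member were named. Members and lists were chosen with earlier results of these data known. Alternatives were other pseudocounts, filters, scalings and thresholds, fits of 2 groups, edgeR 4.0.16 and DESeq2 1.42.0 on the recovered reads, a GC correction, the GC split as a covariate, a replicate block, and leaving out each library.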

Additional observations from a re-analysis of the deposited data

Results flagged for a closer look

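Igfbp3 in graft BM-MSCs had 1 library far from the others. Graft BM-MSC 3 was at 5007, against 148 to 972 in the other 3, and the gap to its neighbor was 0.830 of the range of the group. The same measure was computed for the 8 members in graft BM-MSCs, on normalized read counts and not on the log2 scale of the tests. If values are normally distributed, chance alone places about 1 in 20 groups of 4 this far apart, and these counts need not be. Igfbp4 came close to it, with a gap of 0.824 between graft BM-MSC 2 and the others.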

How the results depend on the processing

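Of 484 values of the members under alternatives, 409 kept the direction and the side of the threshold, 48 kept the direction but lost the call, 10 gained a call and 17 turned direction. Counts of members under an alternative stand without the share of all genes called there. The number of all genes called also moved under some alternatives. The numbers in the titles did not pair the libraries, with correlations of deviations between libraries of the same number of -0.0191 to 0.0295, and joined numbers were levels of their own. With the replicate block, 0 members passed in each of the 3 comparisons, and Igf1 turned to 0.00203 against P-SSCs, while Igf1r turned to -0.49 and Igfbp3 to 0.25 between P-SSCs and BM-MSCs. With the GC correction and the replicate block together, 1 member passed for graft BM-MSCs against P-SSCs and 0 in each of the other comparisons. Igf1 was then 0.0543 against P-SSCs, Igfbp5 0.00171 against BM-MSCs, and Igf1r -0.38 and Igfbp3 0.31 between P-SSCs and BM-MSCs. A block leaves fewer degrees of freedom, and the part of this in the lost calls was not tested. The cause of the changed differences was not tested either.

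For graft BM-MSCs against BM-MSCs, 0 members passed at an adjusted p under 0.01, with edgeR or with the GC split as a covariate, and 1 with DESeq2, which gave no adjusted p for Igfbp4 and Igfbp7. With that covariate Igfbp3 turned to -2.44 and Igfbp7 to -0.63, and with a pseudocount of 0.1 Igfbp2 turned to -0.0472. For P-SSCs against BM-MSCs, 2 members passed with DESeq2 (Igfbp6, and Igfbp2 with all P-SSCs at 0) and 3 with the GC split as a covariate. With edgeR, Igf1 was 0.0867 (graft BM-MSCs against P-SSCs) and Igfbp7 1.258 (P-SSCs against BM-MSCs). Without division by exon length, the shares were 71.7% for Igfbp4 in graft BM-MSCs, 63.0% for Igfbp5 in BM-MSCs and 63.3% for Igfbp6 in P-SSCs. The cause was not tested.

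When each library was left out in turn, the count for graft BM-MSCs against BM-MSCs ranged from 0 (without BM-MSC 2+4 or 3) to 2, and that for P-SSCs against BM-MSCs from 1 to 3 (without P-SSC 4). Igf1 ranged from -0.92 to 0.0586 (without graft BM-MSC 3) against P-SSCs, and Igfbp2 from -0.43 (without graft BM-MSC 3) to 2.77 against BM-MSCs. Between P-SSCs and BM-MSCs, Igfbp5 ranged from -0.0604 (without P-SSC 1) to 0.42 and Igfbp7 from -2.39 (without P-SSC 4) to 0.27. Igf1r and Igfbp2 gave no value at a mean of at least 100, since both are below it. With 2 to 21 reads, Igfbp2 in BM-MSCs was near the limit of depth.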
